A study of Homo sapiens with 13 samples.

Results

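The comparison set HepG2S1 cells that were kept in sorafenib at 2% O2 against their parental line HepG2, which was kept without the drug at 20% O2. HepG2S1 at 2% O2 was measured in 3 flasks, with 6 µM sorafenib for 72 h, and HepG2 in 3 flasks, also harvested after 72 h. Group membership came from the exposure labels, and these 6 arrays are part of a series of 13. HepG2S1 at 20% O2 with 6 µM sorafenib (4 flasks) and HepG2S1 at 20% O2 withdrawn from the drug (3 flasks), also at 72 h, are given beside them where they show on which side of the oxygen difference a gene lies. Each array row that the platform annotation ties to 1 gene symbol entered, which made 18377 genes.

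HepG2 is an established human liver tumour line, labelled as hepatoblastoma, that makes many plasma proteins of the liver. HepG2S1 was raised from it by the submitters over several months in slowly increasing sorafenib and then stayed in the drug. The labels do not say whether HepG2S1 is 1 clone, and they name no vehicle for the HepG2 flasks although sorafenib was dissolved in dimethyl sulfoxide. All flasks shared the same medium, with insulin and dexamethasone. Line, current drug and oxygen all differ between both groups, so that their parts in any difference cannot be told apart in this comparison alone. The flasks were separate, but nothing states that they came from separate cultures, so p-values measure the spread between flasks.

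Sorafenib blocks several receptor tyrosine kinases and RAF kinases and is used against liver cancer. Cells sense oxygen through prolyl hydroxylases, which mark the alpha subunits of hypoxia-inducible factors (HIF) for destruction while oxygen is present. When oxygen is low, HIF-1 alpha or HIF-2 alpha pairs with ARNT, binds the core sequences ACGTG or GCGTG, and raises genes for glucose uptake, glycolysis, vessel growth and matrix cross-linking. Hepatocyte character rests on a network of liver transcription factors, and carcinoma cells that lose it often gain mesenchymal proteins such as vimentin.

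Values are log2 RMA levels, so that a difference of 1 is 2-fold. A gene is called when limma gave an adjusted p under 0.05, and every log2 fold change is HepG2S1 at 2% O2 minus HepG2 unless another pair is named. Array medians lay between 7.30 and 7.42. Pairs of arrays within a group correlated at 0.9967 to 0.9975 in HepG2S1 at 2% O2 and at 0.9957 to 0.9964 in HepG2, and pairs across both groups at 0.9134 to 0.9208. The deposited values hold no detection calls. A level of 5.76, the median lower quartile of the arrays, is used as a low line, also called the floor. Whether array values flatten there was not examined, so folds of genes below it in 1 group may be understated.

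The labelled cell type was checked against defining markers of liver cells. All 3 HepG2 arrays had high levels of albumin (ALB), alpha-fetoprotein (AFP) and apolipoprotein B (APOB), between 12.66 and 13.65. On the 3 arrays of HepG2S1 at 2% O2 ALB and AFP lay below the low line, between 4.67 and 5.07, and APOB between 6.08 and 6.20. The libraries labelled HepG2S1 thus lay at or near the floor for defining hepatocyte markers that the libraries labelled HepG2 held at high levels. The same was so at 20% O2, where HepG2S1 under sorafenib had means of 5.20 for ALB, 4.79 for AFP and 6.20 for APOB. The identity of the lines was not tested, since the expression values alone do not give it.

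Of 18377 genes, 11254 (61.2%) were called, 5630 higher (30.6%) and 5624 lower (30.6%) in HepG2S1 at 2% O2. At 2-fold or more, 1720 were higher (9.36%) and 1352 lower (7.36%), and at 16-fold or more 99 were higher (0.539%) and 164 lower (0.892%). The arrays of both groups did not overlap in 11661 genes (63.5%), of which 10713 were also called (58.3% of all). The median log2 fold change of all genes was -0.05. Shifting each array to a common 75th percentile moved that median to -0.15 and the calls to 4820 higher and 8145 lower, so that 37.2% of calls were higher in place of 50.0%. Small differences are therefore read only relative to that shift of all genes. List counts against HepG2 below are to be read beside the 30.6% of all genes called in each direction. Those between 2% and 20% O2 stand beside 8.99% of all genes higher and 6.17% lower.

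**Figure D1:**
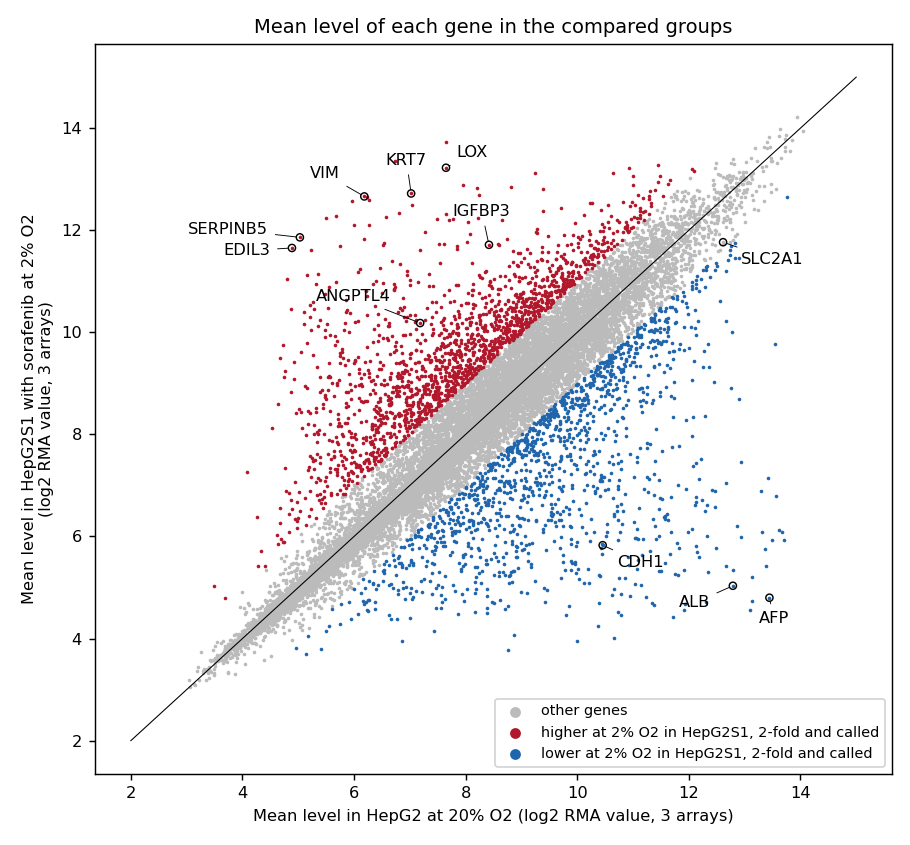
Mean log2 RMA level of each of 18377 genes in HepG2S1 with sorafenib at 2% O2 (vertical axis) against HepG2 at 20% O2 (horizontal axis), 3 arrays each. Red and blue points passed an adjusted p of 0.05 and a 2-fold difference (1720 higher, 1352 lower), the line marks equal levels, and the named genes are those described in the text.

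The 8 largest falls were led by AFP, APOH and LYZ, and the 8 largest rises by SERPINB5, EDIL3 and DSEL. AFP, the fetal serum protein of liver tumours, had levels of 4.67, 4.87 and 4.86 in HepG2S1 at 2% O2, against 13.48, 13.52 and 13.33 in HepG2, a log2 fold change of -8.65 ± 0.08 (SE; limma, adjusted p = 3.48e-19). APOH, a plasma apolipoprotein that binds phospholipids, had 4.35, 4.66 and 4.66 in HepG2S1 at 2% O2 and 13.13, 13.15 and 13.00 in HepG2 (-8.54 ± 0.09). LYZ, lysozyme, had 4.78, 4.64 and 4.79 in HepG2S1 at 2% O2 and 13.13, 13.09 and 13.15 in HepG2 (-8.39 ± 0.08). All 3 genes lay under the low line on each HepG2S1 array and far above it on each HepG2 array, with no overlap. Next came SPP1, osteopontin (-7.95 ± 0.07), ITIH2, a heavy chain of the inter-alpha-trypsin inhibitor (-7.92 ± 0.07), GPC3, a cell-surface proteoglycan of fetal liver (-7.77 ± 0.09), ALB (-7.76 ± 0.07) and SERPINF1, an anti-angiogenic serpin (-7.62 ± 0.10). Of the 164 genes that were 16-fold lower, 76 had a mean under 5.76 in HepG2S1 at 2% O2, so that the order among the largest falls is not settled.

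SERPINB5, the serpin maspin of squamous and glandular epithelium, had levels of 11.86, 11.87 and 11.85 in HepG2S1 at 2% O2 and 4.91, 5.20 and 4.98 in HepG2, a log2 fold change of 6.83 ± 0.07 (limma, adjusted p = 6.82e-19). EDIL3, a secreted ligand of integrins, had 11.74, 11.69 and 11.53 in HepG2S1 at 2% O2 and 4.52, 4.76 and 5.39 in HepG2 (6.77 ± 0.15). VIM, vimentin, the intermediate filament of mesenchymal cells, had 12.66, 12.70 and 12.63 in HepG2S1 at 2% O2 and 6.05, 6.24 and 6.26 in HepG2 (6.48 ± 0.06). The HepG2S1 arrays of these genes lay close together, while EDIL3 differed more among HepG2 arrays, near the floor. DSEL, an epimerase-like protein of dermatan sulfate synthesis (6.74 ± 0.09), ANXA1, annexin A1, a membrane-binding protein that dampens inflammation (6.62 ± 0.12), MFAP5, a microfibril protein (6.61 ± 0.06), SRI, the calcium-binding sorcin (6.60 ± 0.08), and CAV1, the coat protein of caveolae (6.43 ± 0.12), completed the 8 largest rises. Of the 99 genes that were 16-fold higher, 40 had a mean under 5.76 in HepG2.

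**Figure D2:**
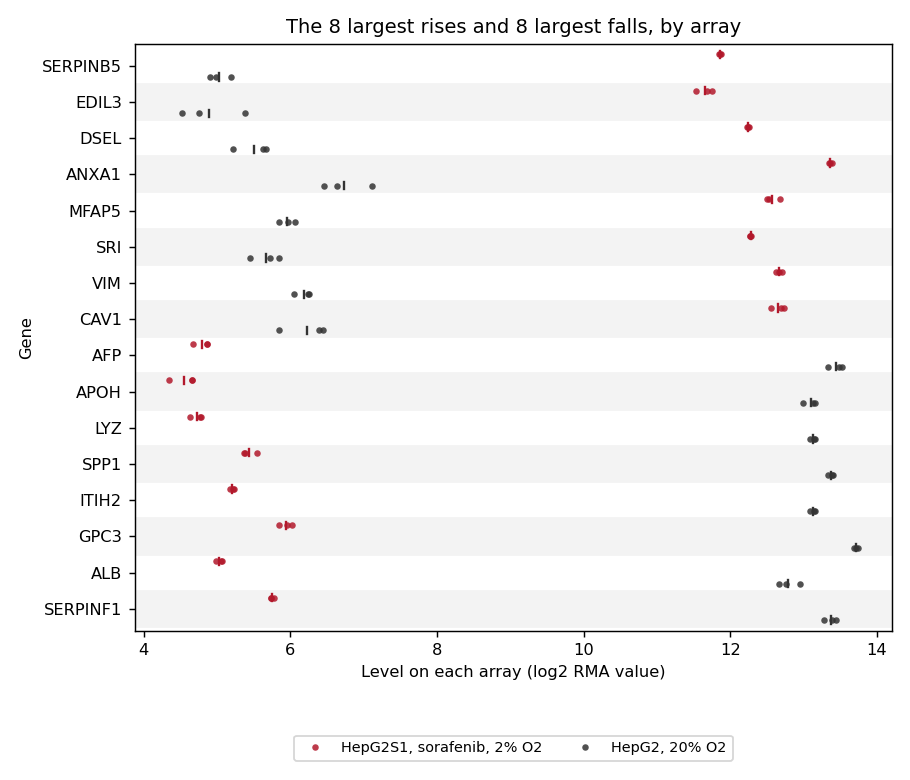
Log2 RMA level on each array (points) and group mean (bars) for the 8 largest rises and the 8 largest falls, with HepG2S1 under sorafenib at 2% O2 in red and HepG2 at 20% O2 in dark grey. Every gene shows 2 separate clusters, with SERPINB5 near 11.9 in HepG2S1 and near 5.0 in HepG2, and AFP near 4.8 in HepG2S1 and near 13.4 in HepG2.

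Most of these 16 genes, like most of all genes, did not pass the test between oxygen levels. In HepG2S1 under the drug, 2% minus 20% O2 was not called for AFP at 0.01 ± 0.08 (limma, adjusted p = 0.947), VIM at 0.05 ± 0.05 (adjusted p = 0.52) and SERPINB5 at 0.03 ± 0.07 (adjusted p = 0.765) on the log2 scale. 2 of the 16 passed that test, both higher at 2% O2: DSEL at 0.57 ± 0.09 (adjusted p = 0.000562) and CAV1 at 0.60 ± 0.11 (adjusted p = 0.00189). Of all 18377 genes 2786 (15.2%) passed it, 1653 higher (8.99%) and 1133 lower (6.17%) at 2% O2. By 2-fold or more 79 were higher (0.43%) and 1 was lower (0.00544%), CD22, a lectin of B cells named after its value was seen, at -1.17 ± 0.10. With 75th percentile scaling 1197 were higher and 2475 lower, so that 32.6% of calls were higher in place of 59.3%. Without replicate 2 of HepG2S1 at 2% O2, 1077 were higher and 521 lower, without replicate 1, 582 were lower, and without replicate 4 of HepG2S1 at 20% O2, 698 were lower. Because the HepG2 arrays cancel, this contrast is the test of the difference between HepG2S1 at 2% O2 and at 20% O2 when each is set against HepG2. The comparisons against HepG2 share their HepG2 arrays, so their values are given side by side without a measure of their overlap.

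Plasma proteins of the hepatocyte were lower throughout. Of 28 measured genes 28 fell and none rose, with a median log2 fold change of -5.48, where 30.6% of all genes fell. 12 of them had a mean under 5.76 in HepG2S1 at 2% O2, against 1 in HepG2. HP, haptoglobin, which binds free haemoglobin, had 4.72, 4.51 and 4.89 in HepG2S1 at 2% O2 and 12.21, 12.47 and 12.24 in HepG2 (-7.59 ± 0.11). The 3 fibrinogen chains FGA, FGB and FGG, which form clots, were at -7.45, -7.25 and -7.29, and TF, the iron carrier transferrin, was at -7.56. The smallest falls were in C3, the central complement protein (-1.12 ± 0.06, with levels of 12.67, 12.70 and 12.56 in HepG2S1 at 2% O2 and 13.77, 13.77 and 13.75 in HepG2), A1BG (-1.08), ITIH1 (-0.92) and the coagulation factor F9, which lay under the low line in both groups (-0.20). The arrays of C3 did not overlap and stayed far above the low line in both groups. The fibrinogen chains, TF, C3, A1BG, ITIH1 and F9 were picked out after their values were seen.

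Apolipoproteins and lipoprotein assembly genes fell in 11 of 11 measured members, with a median of -4.36. APOB, the structural protein of very low density lipoprotein, had 6.08, 6.09 and 6.20 in HepG2S1 at 2% O2, against 13.65, 13.62 and 13.56 in HepG2 (-7.49 ± 0.07). APOA2, of high density lipoprotein, had 6.79, 6.81 and 6.79 in HepG2S1 at 2% O2 and 13.54, 13.54 and 13.59 in HepG2 (-6.76 ± 0.05), and APOA1, its main protein, changed by -3.85 ± 0.12. Neither gene overlapped between groups. Between 2% and 20% O2, 5 of the 28 plasma proteins were lower (17.9%) and 1 was higher (3.6%), beside 6.17% and 8.99% of all genes. The 1 that was higher at 2% O2 was CP, ceruloplasmin, the copper-carrying ferroxidase of plasma. It had 6.74, 6.62 and 6.47 in HepG2S1 at 2% O2, 4.98, 4.86, 5.25 and 4.63 in HepG2S1 at 20% O2 and 12.32, 12.09 and 11.92 in HepG2. Its log2 fold change was -5.50 ± 0.14 against HepG2 and 1.68 ± 0.13 against HepG2S1 at 20% O2 (limma, adjusted p = 5.79e-07), so that it stood between both other groups.

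The start regions of AFP and ALB are shown because both genes carry the liver pattern and because HNF1, a liver homeodomain factor, is known to bind a half-site with the letters GTTAAT. The sequences are RefSeq promoters on GRCh38.p14, 250 bases before to 50 after the start of the gene, read 5′ to 3′ on the strand of the gene, with each GTTAAT in capitals. AFP lies at chr4:73435971-73436270 and ALB at chr4:73404037-73404336, both on the plus strand.
AFP: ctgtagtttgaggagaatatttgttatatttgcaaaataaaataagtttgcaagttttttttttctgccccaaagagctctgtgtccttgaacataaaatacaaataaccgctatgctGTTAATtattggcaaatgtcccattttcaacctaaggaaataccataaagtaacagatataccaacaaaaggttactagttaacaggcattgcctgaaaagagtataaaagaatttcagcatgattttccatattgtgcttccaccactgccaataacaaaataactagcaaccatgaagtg
ALB: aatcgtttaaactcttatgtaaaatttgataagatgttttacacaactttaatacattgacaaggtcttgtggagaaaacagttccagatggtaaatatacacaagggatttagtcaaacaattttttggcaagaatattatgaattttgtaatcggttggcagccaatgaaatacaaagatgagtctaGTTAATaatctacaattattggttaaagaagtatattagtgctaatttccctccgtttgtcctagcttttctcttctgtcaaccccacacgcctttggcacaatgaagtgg
The capitals lie at -132 to -127 from the start in AFP and at -61 to -56 in ALB. GTTAAT, on either strand, was in 9 of 31 promoters (29.0%) of the 22 measured plasma protein genes that had an entry, and in 6.9% of 35116 promoters of all genes. A match of letters describes the sequence and shows no binding.

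Transcription factors of liver and endoderm fell in 13 of 17 measured members and rose in 3, with a median of -1.26, and 1 was not called. PROX1, a homeobox factor of liver and lymphatic cells, had 5.19, 5.12 and 5.27 in HepG2S1 at 2% O2 and 9.77, 9.61 and 9.75 in HepG2 (-4.51 ± 0.08). NR0B2, a nuclear receptor that represses bile acid synthesis, changed by -3.58 ± 0.14, SOX9, a factor of progenitor and bile duct cells, by -2.51 ± 0.08, and FOXA2, a pioneer factor of endoderm, by -2.23 ± 0.11. The 3 that rose did so by small amounts: ONECUT2 by 0.46, CEBPB by 0.32 and GATA6 by 0.23. HNF4A is not analysed here.

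Hepatocyte enzymes and uptake transporters fell in 17 of 24 and rose in 4, with a median of -1.24. HPD, which breaks down tyrosine, had 5.97, 6.04 and 6.04 in HepG2S1 at 2% O2 and 12.30, 12.27 and 12.38 in HepG2 (-6.30 ± 0.06). SULT2A1, the sulfotransferase of bile acids and steroids, changed by -5.70 ± 0.09 and ADH4, an alcohol dehydrogenase, by -5.33 ± 0.08. Against the list, CPS1, which feeds ammonia into the urea cycle, was higher, with 12.86, 12.82 and 12.74 in HepG2S1 at 2% O2 and 9.43, 9.29 and 9.47 in HepG2 (3.41 ± 0.06), as was the uptake transporter SLCO1B3 (2.55 ± 0.13). CPS1, SLCO1B3 and the 3 factors that rose were picked out after their values were seen. With genes of low level left out before the fit, 7 members fell and 2 rose. That filter used the mean level over all 13 arrays, most of them HepG2S1, so members high only in HepG2 can leave a list. A smaller count under it, here and in other lists, therefore need not mean a lost call.

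Oncofetal and progenitor markers fell in 12 of 16 and rose in 3, with a median of -2.95, and 7 fell with genes of low level left out. LGR5, a receptor of WNT-driven stem cells, had 5.16, 5.40 and 5.25 in HepG2S1 at 2% O2, against 11.91, 11.78 and 11.57 in HepG2 (-6.48 ± 0.08), and EPCAM, an adhesion protein of progenitors and epithelium, changed by -5.07 ± 0.09. CD44, a hyaluronan receptor chosen after its value was seen, went the other way, with 11.73, 11.76 and 11.71 in HepG2S1 at 2% O2 and 7.41, 7.71 and 7.48 in HepG2 (4.20 ± 0.07). No oncofetal gene passed the test between 2% and 20% O2.

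Epithelial junction genes and keratins were split, with 13 of 22 lower, 8 higher and 1 not called (median -0.38). CDH1, the epithelial cadherin, had 5.93, 5.86 and 5.70 in HepG2S1 at 2% O2 and 10.68, 10.35 and 10.34 in HepG2 (-4.63 ± 0.08; limma, adjusted p = 4.2e-16). KRT7, a keratin of ducts and simple epithelium, had 12.74, 12.72 and 12.70 in HepG2S1 at 2% O2 and 7.08, 7.32 and 6.67 in HepG2 (5.70 ± 0.11). CDH2, the neural cadherin, was high in both groups, with 12.13, 12.12 and 11.98 in HepG2S1 at 2% O2 and 11.45, 11.39 and 11.29 in HepG2 (0.70 ± 0.06). CDH1 thus stood near the low line in HepG2S1 at 2% O2, and none of the 3 genes overlapped between groups. CLDN7, a tight junction protein chosen after its value was seen, rose by 4.52 ± 0.08.

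Mesenchymal genes and factors of epithelial to mesenchymal transition rose in 16 of 28, fell in 7 and were not called in 5, with a median of 1.45, where 30.6% of all genes rose. SNAI2, a repressor of CDH1, had 12.87, 12.86 and 12.94 in HepG2S1 at 2% O2 and 7.65, 8.10 and 8.10 in HepG2 (4.94 ± 0.09). ZEB1, another such repressor, changed by 1.06 ± 0.08, and SNAI1, a related factor, was not called at 0.10 ± 0.08 (limma, adjusted p = 0.272), with overlapping arrays. LOX, the lysyl oxidase that cross-links collagen, had 13.19, 13.36 and 13.13 in HepG2S1 at 2% O2 and 7.54, 7.66 and 7.75 in HepG2 (5.58 ± 0.07). The 7 that fell included secreted matrix proteins: SPARC (-5.01 ± 0.08) and fibronectin, FN1 (-3.79 ± 0.09), both picked out after their values were seen, which have mesenchymal cells as a known source but were high in HepG2. COL1A1, COL1A2 and COL3A1, the chains of fibrillar collagen, were at -0.21, -0.10 and -0.33, of which COL1A2 was not called. Between 2% and 20% O2, 7 of the 28 were higher and 1 lower, beside 8.99% and 6.17% of all genes. LOX was among the higher ones at 1.46 ± 0.06.

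Integrins and basement membrane genes rose in 10 of 21 and fell in 7, with a median of 0.05. ITGA5, the fibronectin receptor subunit, had 11.97, 12.05 and 11.88 in HepG2S1 at 2% O2 and 7.19, 7.50 and 7.13 in HepG2 (4.70 ± 0.09), and it was also higher than at 20% O2 (0.92 ± 0.08; adjusted p = 1.91e-06). ITGB8, which activates TGF-beta, changed by 3.89 ± 0.07, and NID1, a linker of basement membranes, by -5.60 ± 0.07. Matrix proteases and their inhibitors rose in 7 of 22 and fell in 10 (6 with genes of low level left out). MMP7, matrilysin, had 9.10, 8.94 and 8.95 in HepG2S1 at 2% O2 and 6.23, 6.35 and 6.56 in HepG2 (2.62 ± 0.09), and PLAUR, the urokinase receptor, changed by 2.44 ± 0.08. The shares of both lists, 47.6% higher and 33.3% lower for integrins and 31.8% higher and 45.5% lower for proteases, stood beside 30.6% of all genes in each direction.

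S100 proteins and annexins rose in 13 of 21 and fell in 3. S100A4, a calcium-binding protein of motile cells, had 9.94, 10.00 and 9.90 in HepG2S1 at 2% O2 and 7.29, 7.17 and 7.71 in HepG2 (2.56 ± 0.10), and ANXA2, a cofactor of plasminogen activation, changed by 1.95 ± 0.06. Clade B serpins, which act mostly inside cells, rose in 5 of 11 and fell in 1, and 5 lay under the low line in both groups. SERPINB7 rose by 3.40 ± 0.12, and SERPINB9, the inhibitor of granzyme B, was the 1 that fell (-3.43 ± 0.08). The number of clade B serpins that fell was 4 with 75th percentile scaling, 2 without replicate 1 of HepG2 and 0 with genes of low level left out.

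Markers of other cell types moved without a common direction, beside 30.6% of all genes called each way. The part of these markers in the results was not tested. Fibroblast and stellate markers rose in 3 of 12 and fell in 5, but 3 fell without replicate 1 of HepG2, without replicate 2 of HepG2S1 at 2% O2, or at an adjusted p of 0.01. DCN, decorin, a small matrix proteoglycan, had 11.14, 11.20 and 11.01 in HepG2S1 at 2% O2 and 5.03, 5.24 and 5.23 in HepG2 (5.95 ± 0.08), and LUM, lumican, changed by 5.09 ± 0.15, while RELN, reelin, fell by 5.92 on the log2 scale. Of the defining members PDGFRA (5.49 in HepG2S1 at 2% O2 and 5.65 in HepG2) and LRAT (5.61 in HepG2S1 at 2% O2 and 5.66 in HepG2) lay under the low line in both groups, and THY1 had means of 6.48 in HepG2S1 at 2% O2 and 6.47 in HepG2. The log2 of the summed levels of the 12 genes ran from 12.2 to 12.4 in HepG2S1 at 2% O2 and from 12.7 to 12.8 in HepG2.

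Squamous and basal epithelium markers rose in 4 of 9 and fell in 1 (2 with 75th percentile scaling, or without replicate 1 of HepG2S1 at 2% O2 or of HepG2), with log2 summed levels of 12.6 to 12.7 in HepG2S1 at 2% O2 and 10.4 to 10.5 in HepG2. SERPINB5, described above, is a member, and its means of 11.86 in HepG2S1 at 2% O2 and 5.03 in HepG2 are part of that sum. SFN, stratifin of epithelium, rose by 1.72 ± 0.07, SERPINB3, a serpin of squamous cells, by 1.31 ± 0.19 and KRT5, a basal keratin, by 0.86 ± 0.06. With SERPINB5 these are all 4 members called higher, and 4 of the 9 were not called. DSG3, a desmosomal cadherin of squamous cells, lay under the low line in both groups. Biliary markers rose in 2 of 7 and fell in 3, with log2 summed levels of 13.3 in HepG2S1 at 2% O2 and 14.0 in HepG2 on all arrays. MUC1, a membrane mucin, had 11.37, 11.56 and 11.23 in HepG2S1 at 2% O2 and 6.42, 7.04 and 6.59 in HepG2 (4.70 ± 0.12). KRT19, a duct keratin, fell by 4.05, so that the duct keratins went opposite ways. In bulk samples fewer cells of a type and less RNA per cell cannot be told apart.

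Endothelial markers rose in 1 of 9 (none with 75th percentile scaling) and fell in 6 (2 with none higher where genes of low level were left out), with log2 summed levels of 9.3 to 9.5 in HepG2S1 at 2% O2 and 9.9 to 10.1 in HepG2. By comparison, 30.6% of all genes were called in each direction. LYVE1, a hyaluronan receptor of lymphatic and sinusoidal endothelium, changed by -2.86 ± 0.09, and PECAM1 and CDH5, which define endothelium, had means of 5.60 and 6.38 in HepG2S1 at 2% O2 and 6.28 and 7.10 in HepG2. Blood cell markers rose in 1 of 8 and fell in 3, LYZ among them (1 with genes of low level left out), with log2 summed levels of 12.3 to 12.4 in HepG2S1 at 2% O2 and 13.5 to 13.6 in HepG2. PTPRC, the pan-leukocyte marker, lay under the low line in both groups, with means of 4.33 in HepG2S1 at 2% O2 and 4.40 in HepG2.

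By the labels, this comparison differs from that of HepG2S1 under sorafenib at 20% O2 with HepG2 in the oxygen level. Among the HIF subunits and oxygen sensors 7 of 14 rose, 6 fell and 1 was not called, beside 30.6% of all genes called each way. HIF1A, the alpha subunit of HIF-1, had 12.66, 12.67 and 12.51 in HepG2S1 at 2% O2 and 12.37, 12.27 and 12.12 in HepG2 (0.36 ± 0.08), and ARNT, the shared partner, changed by 0.73 ± 0.06. EPAS1, HIF-2 alpha, had 11.82, 11.90 and 11.84 in HepG2S1 at 2% O2, 12.22, 12.23, 12.21 and 12.21 in HepG2S1 at 20% O2 and 12.06, 12.12 and 12.10 in HepG2. It was lower than in both other groups, by 0.24 against HepG2 and by 0.36 against 20% O2 (adjusted p = 0.000122). RNA levels of these subunits do not measure their protein, which oxygen controls.

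Of 39 measured HIF target genes 32 rose against HepG2, 4 fell and 3 were not called, with a median of 1.15. Against HepG2S1 at 20% O2, 38 of the 39 were higher and none lower, with a median of 1.12, where 8.99% of all genes were higher. The same list in HepG2S1 at 20% O2 against HepG2 held 16 higher and 17 lower genes, with a median of 0.04, where 57.3% of all genes were called, 30.1% higher and 27.2% lower. The 3 targets not called at 2% O2 against HepG2 were CA12, INSIG2 and KDM4B (0.15 ± 0.07; adjusted p = 0.0661). The 1 target that did not pass between 2% and 20% O2 was CXCR4, a chemokine receptor (-0.08 ± 0.10; adjusted p = 0.605).

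**Figure D3:**
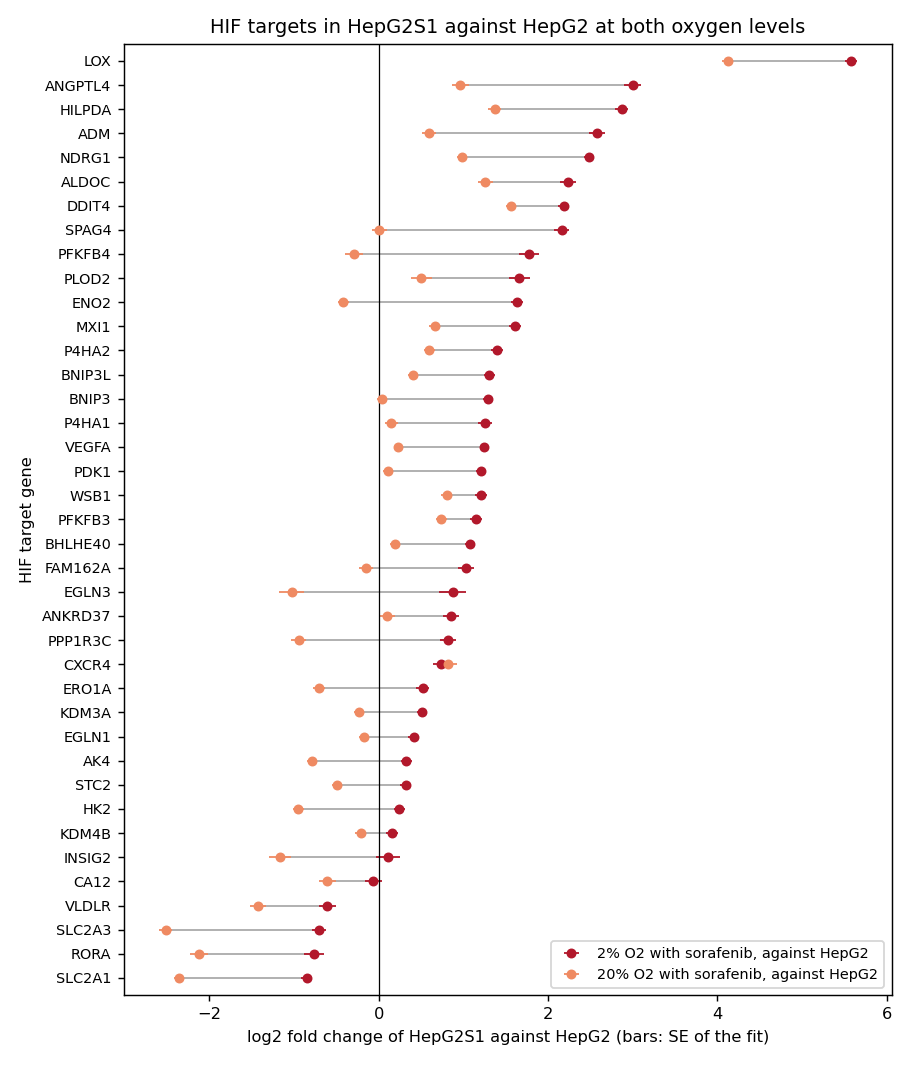
Log2 fold change against HepG2, with the SE of the fit as bars, for the 39 measured HIF target genes in HepG2S1 under sorafenib at 2% O2 (red, 3 arrays) and at 20% O2 (orange, 4 arrays), sorted by the value at 2% O2. The red points lie to the right of the orange ones in all genes except CXCR4, while several orange points are left of 0, down to -2.51 for SLC2A3.

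ANGPTL4, an inhibitor of lipoprotein lipase, had 10.16, 10.43 and 9.95 in HepG2S1 at 2% O2, 8.24, 8.09, 8.08 and 8.19 in HepG2S1 at 20% O2 and 7.10, 7.26 and 7.20 in HepG2. Its log2 fold change was 3.00 ± 0.10 against HepG2 (limma, adjusted p = 7.45e-13) and 2.03 ± 0.10 against 20% O2. HILPDA, which holds lipid in droplets, changed by 2.87 ± 0.08 against HepG2 and ADM, the vasodilator adrenomedullin, by 2.58 ± 0.09. VEGFA, the main growth factor of vessels, had 12.28, 12.31 and 12.21 in HepG2S1 at 2% O2 and 11.004, 10.99 and 11.07 in HepG2 (1.25 ± 0.05), against 0.23 ± 0.05 for 20% O2 minus HepG2. BNIP3, which marks mitochondria for removal, changed by 1.29 ± 0.06 at 2% O2 and 0.04 ± 0.05 at 20% O2, each against HepG2. In VEGFA, as in BNIP3, the 3 arrays at 2% O2 lay above all HepG2 arrays.

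The 10 genes with the largest difference between 2% and 20% O2 among those called in both tests were IGFBP3, SPAG4, ROPN1L, PFKFB4, ENO2, ANGPTL4, ADM, EGLN3, CCL28 and TMEM45A, and all 10 were higher at 2% O2. IGFBP3, which carries insulin-like growth factors, had 11.60, 12.02 and 11.52 in HepG2S1 at 2% O2, 8.93, 8.86, 8.87 and 8.80 in HepG2S1 at 20% O2, 10.28, 10.11 and 10.19 in withdrawn HepG2S1 and 8.65, 8.32 and 8.29 in HepG2. It changed by 3.30 ± 0.12 against HepG2 and by 2.85 ± 0.11 against 20% O2 (adjusted p = 5.88e-10). Its lowest level in HepG2S1 at 2% O2 was above every array of the other groups. SPAG4, a nuclear envelope protein, changed by 2.16 ± 0.09 against HepG2, where 20% O2 minus HepG2 was 0.01, and ROPN1L, known from sperm flagella, by 2.48 ± 0.09. CCL28, a chemokine of mucosal epithelium, had 9.57, 9.69 and 9.37 in HepG2S1 at 2% O2 and 5.58, 5.90 and 5.74 in HepG2 (3.81 ± 0.10), and TMEM45A, a membrane protein, changed by 3.48 ± 0.08. In CCL28 and TMEM45A 2% minus 20% O2 was 1.87 and 1.83, beside 1.94 and 1.65 for 20% O2 minus HepG2.

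Some genes of glucose use were lower than HepG2 in HepG2S1 under sorafenib at 20% O2 and higher than HepG2 at 2% O2. ENO2, the neuronal enolase of glycolysis, had 11.42, 11.55 and 11.26 in HepG2S1 at 2% O2, 9.38, 9.43, 9.34 and 9.29 in HepG2S1 at 20% O2 and 9.78, 9.71 and 9.84 in HepG2. PFKFB4, which sets the level of the activator of phosphofructokinase, had 9.13, 9.47 and 8.86 in HepG2S1 at 2% O2, 7.18, 7.13, 7.01 and 7.04 in HepG2S1 at 20% O2 and 7.47, 7.34 and 7.33 in HepG2. PPP1R3C, which brings a phosphatase to glycogen, had 9.38, 9.31 and 9.04 in HepG2S1 at 2% O2, 7.56, 7.46, 7.52 and 7.38 in HepG2S1 at 20% O2 and 8.44, 8.28 and 8.56 in HepG2. In all 3 genes the arrays at 2% O2 were highest and those under sorafenib at 20% O2 lowest, with no overlap with HepG2. Withdrawn HepG2S1 at 20% O2 minus HepG2 was 0.125 ± 0.072 for ENO2, which was not called. It was 0.36 ± 0.11 for PFKFB4 and -0.62 ± 0.09 for PPP1R3C. Against HepG2 the log2 fold changes at 2% O2 were 1.64 ± 0.07, 1.77 ± 0.11 and 0.82 ± 0.09 in this order, and those at 20% O2 were -0.41 ± 0.07, -0.29 ± 0.11 and -0.94 ± 0.09.

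The start regions of these 3 genes and of the glucose transporter SLC2A1 are shown because they took large steps between oxygen levels, and because HIF binds the letters ACGTG or GCGTG. They are RefSeq promoters on GRCh38.p14 of 300 bases, 250 before the start, 5′ to 3′ on the strand of the gene, with each ACGTG or GCGTG, on either strand, in capitals. ENO2 lies at chr12:6914330-6914629 on the plus strand, PFKFB4 at chr3:48556754-48557053 on the minus strand, PPP1R3C at chr10:91633022-91633321 on the minus strand and SLC2A1 at chr1:42958819-42959118 on the minus strand.
ENO2: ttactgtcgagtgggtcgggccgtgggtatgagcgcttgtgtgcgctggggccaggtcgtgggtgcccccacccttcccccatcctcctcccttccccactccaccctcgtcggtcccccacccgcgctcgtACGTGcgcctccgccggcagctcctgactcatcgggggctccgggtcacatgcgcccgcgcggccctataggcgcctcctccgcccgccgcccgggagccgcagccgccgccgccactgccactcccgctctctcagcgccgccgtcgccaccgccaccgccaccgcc
PFKFB4: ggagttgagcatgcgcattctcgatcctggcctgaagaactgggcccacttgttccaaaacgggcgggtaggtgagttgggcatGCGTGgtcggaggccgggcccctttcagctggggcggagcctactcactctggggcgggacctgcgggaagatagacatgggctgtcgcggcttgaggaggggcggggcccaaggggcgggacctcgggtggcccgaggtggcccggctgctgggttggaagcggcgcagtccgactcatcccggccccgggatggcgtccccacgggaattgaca
PPP1R3C: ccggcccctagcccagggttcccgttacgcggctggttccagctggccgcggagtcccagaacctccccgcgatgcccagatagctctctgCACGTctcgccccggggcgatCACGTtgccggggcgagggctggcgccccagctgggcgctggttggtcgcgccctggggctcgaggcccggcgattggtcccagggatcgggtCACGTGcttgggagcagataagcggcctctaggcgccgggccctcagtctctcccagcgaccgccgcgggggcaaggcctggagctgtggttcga
SLC2A1: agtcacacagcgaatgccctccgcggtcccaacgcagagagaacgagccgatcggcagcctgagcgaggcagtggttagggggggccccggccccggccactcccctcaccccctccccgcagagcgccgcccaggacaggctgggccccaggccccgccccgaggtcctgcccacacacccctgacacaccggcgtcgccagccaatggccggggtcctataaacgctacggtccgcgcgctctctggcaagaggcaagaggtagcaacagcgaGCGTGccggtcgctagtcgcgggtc
ENO2 has 1 match, at -118 to -114 from the start, PFKFB4 1 at -166 to -162, SLC2A1 1 at 25 to 29, and PPP1R3C 4, of which the pair at -45 to -41 and -44 to -40 are both strands of 1 palindrome. Either HIF core was in 41 of 47 promoters (87.2%) of the 33 measured HIF target genes that had an entry, and in 48.4% of 35116 promoters of all genes. The first core also lies within the E-box of other factors, CACGTG, which 7.3% of all promoters hold. The HIF targets were listed from knowledge of such sites, so the share is a description.

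EGLN3, a prolyl hydroxylase of HIF and itself a HIF target, had 9.43, 9.50 and 8.88 in HepG2S1 at 2% O2, 7.09, 7.76, 7.33 and 7.31 in HepG2S1 at 20% O2 and 8.39, 8.31 and 8.49 in HepG2. It was 0.87 ± 0.16 against HepG2 (limma, adjusted p = 0.000177) and 1.90 ± 0.15 against 20% O2, with the array lowest at 2% O2 still above all HepG2 arrays. HK2, the hexokinase of tumour cells, was close to HepG2, with 11.21, 11.29 and 11.12 in HepG2S1 at 2% O2 and 10.92, 10.98 and 10.98 in HepG2 (0.25 ± 0.07; adjusted p = 0.00449), and its call was lost with 75th percentile scaling (0.14; adjusted p = 0.0586). At 20% O2 HK2 was below HepG2 by 0.95. KDM3A, a histone demethylase that uses oxygen, was 0.51 ± 0.06 at 2% O2 and -0.23 ± 0.06 at 20% O2, each against HepG2.

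The glucose transporters stayed below HepG2 at 2% O2. SLC2A1, the widespread transporter GLUT1, had 11.70, 11.87 and 11.72 in HepG2S1 at 2% O2, 10.24, 10.35, 10.22 and 10.21 in HepG2S1 at 20% O2, 11.32, 11.22 and 11.19 in withdrawn HepG2S1 and 12.62, 12.59 and 12.63 in HepG2. Its log2 fold change was -0.85 ± 0.06 at 2% O2 and -2.36 ± 0.06 at 20% O2, each against HepG2, and 2% minus 20% O2 was 1.51 ± 0.06 (adjusted p = 5.88e-10). SLC2A3, the high-affinity transporter GLUT3, had 10.99, 11.16 and 10.78 in HepG2S1 at 2% O2, 9.14, 9.25, 9.06 and 9.19 in HepG2S1 at 20% O2 and 11.68, 11.64 and 11.70 in HepG2 (-0.70 ± 0.08 against HepG2; 1.81 ± 0.08 against 20% O2). In both genes all arrays at 2% O2 were below all HepG2 arrays and above all arrays at 20% O2. MAB21L3, a gene without a settled role, did the same (-1.13 ± 0.10 against HepG2 and 1.79 ± 0.10 against 20% O2). Among HIF targets VLDLR, a lipoprotein receptor, and RORA, a nuclear receptor, both chosen after their values were seen, were also lower against HepG2 (-0.61 and -0.76) and higher against 20% O2 (0.81 and 1.36).

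**Figure D4:**
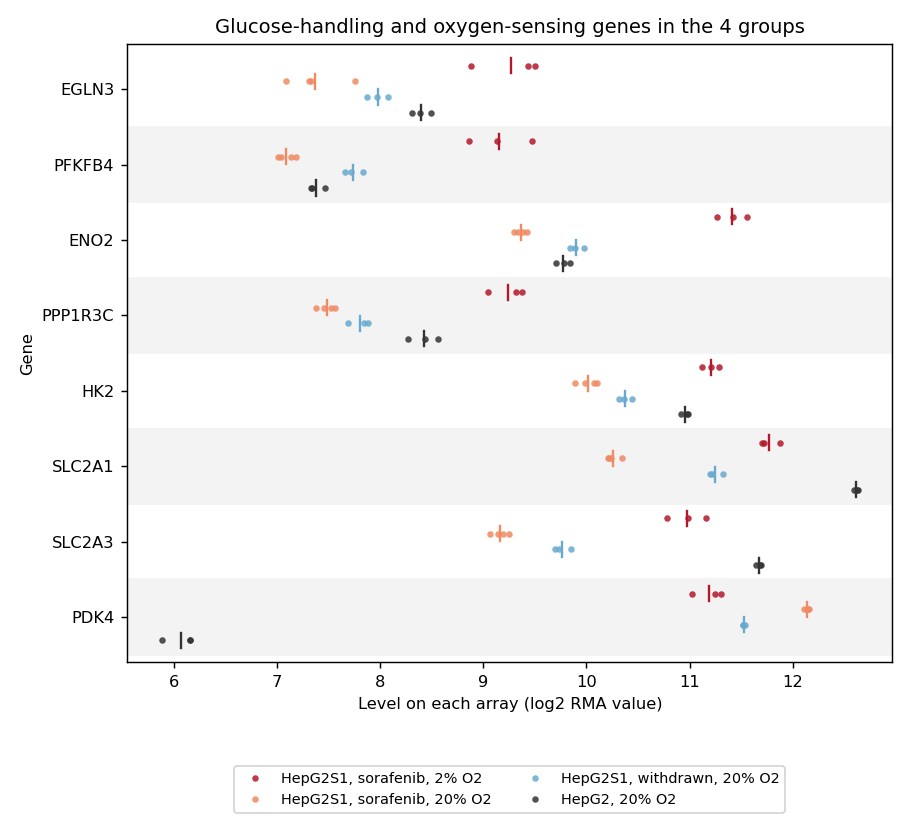
Log2 RMA level on each array (points) and group mean (bars) for 8 genes of glucose handling and oxygen sensing in HepG2S1 with sorafenib at 2% O2 (3 arrays), with sorafenib at 20% O2 (4), withdrawn at 20% O2 (3) and in HepG2 (3). From EGLN3 to HK2 the red points at 2% O2 are the highest of the 4 groups, in SLC2A1 and SLC2A3 HepG2 is highest, and in PDK4 HepG2 is far below the HepG2S1 groups.

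Other genes were not called against HepG2 at 2% O2 but passed between oxygen levels. INSIG2, a brake on sterol synthesis, had 9.62, 9.96 and 9.33 in HepG2S1 at 2% O2, 8.44, 8.26, 8.37 and 8.37 in HepG2S1 at 20% O2 and 9.75, 9.53 and 9.29 in HepG2. It was not called against HepG2 (0.11 ± 0.14; limma, adjusted p = 0.506) and passed against 20% O2 (1.27 ± 0.13; adjusted p = 1.24e-05). JUN, an AP-1 factor (0.17 ± 0.09), TIPARP, a target of the aryl hydrocarbon receptor (0.08 ± 0.09), and IER3, an early response gene (0.14 ± 0.09), likewise were not called against HepG2 and were higher than at 20% O2 by 1.11, 0.93 and 0.86. NR1D2, a repressor of the clock, was -0.13 ± 0.08 against HepG2 and lower than at 20% O2 by 0.83. CA12, a carbonic anhydrase and HIF target, was not called (-0.06 ± 0.10; adjusted p = 0.626), but was called at -0.21 (adjusted p = 0.0278) without replicate 2 of HepG2S1 at 2% O2. JUN, TIPARP and IER3 passed without replicate 3 of HepG2S1 at 2% O2, and IER3 also without replicate 3 of HepG2. NR1D2 passed with 75th percentile scaling (-0.23; adjusted p = 0.0194) and under repeated quantile normalization (-0.22; adjusted p = 0.0285). An uncalled difference does not show that levels were the same.

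Glycolysis and lactate genes rose in 18 of 22 and fell in 4, with a median of 0.86. LDHB, the lactate dehydrogenase chain of oxidative tissues, had 12.59, 12.62 and 12.58 in HepG2S1 at 2% O2 and 5.94, 6.57 and 6.29 in HepG2 (6.33 ± 0.11; limma, adjusted p = 1.69e-16). PDK4, a kinase that shuts pyruvate dehydrogenase, had 11.25, 11.02 and 11.31 in HepG2S1 at 2% O2, 12.14, 12.11, 12.14 and 12.15 in HepG2S1 at 20% O2 and 5.89, 6.16 and 6.16 in HepG2. It changed by 5.12 ± 0.08 against HepG2 and was lower at 2% than at 20% O2 by 0.95 (adjusted p = 8.15e-07), the reverse of most of the list. PFKP, the platelet phosphofructokinase, changed by 3.83 ± 0.07, and PFKFB3, a maker of its activator, by 1.15 ± 0.07. The 4 that fell were SLC2A1, SLC2A3 and the pyruvate dehydrogenase kinases PDK3 (-0.45) and PDK2 (-0.20). Between 2% and 20% O2, 16 of the 22 were higher and 3 lower, beside 8.99% and 6.17% of all genes.

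Respiratory chain genes rose in 9 of 18 and fell in 3, with a median of 0.13, and 5 fell with 75th percentile scaling. CYC1, cytochrome c1, had 11.14, 11.16 and 11.27 in HepG2S1 at 2% O2 and 10.37, 10.43 and 10.61 in HepG2 (0.72 ± 0.06), and SDHA, the flavoprotein of complex II, and NDUFA9, of complex I, changed by 0.72 ± 0.05 and 0.60 ± 0.06. Between 2% and 20% O2, 1 of the 18 was higher and 3 were lower, beside 8.99% and 6.17% of all genes. Acid-base genes were called higher in 1 of 9 and lower in 4. SLC16A7, a monocarboxylate transporter, rose by 3.40 ± 0.07, and CA13, a carbonic anhydrase of the cytosol, fell by 2.47 on the log2 scale.

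Genes of glycogen rose in 8 of 12 and fell in 1, with a median of 0.78, and 3 fell with 75th percentile scaling and 2 under repeated quantile normalization. GBE1, the branching enzyme, had 11.11, 11.18 and 11.01 in HepG2S1 at 2% O2, 10.10, 9.94, 9.94 and 9.87 in HepG2S1 at 20% O2 and 8.96, 8.88 and 8.81 in HepG2 (2.21 ± 0.07 against HepG2; 1.14 ± 0.07 against 20% O2). GYS1, the glycogen synthase of muscle and other tissues, changed by 1.31 ± 0.06 against HepG2 and PGM1, which makes glucose 1-phosphate, by 1.47 ± 0.07. In GBE1 the 3 groups did not overlap and stood in the order 2% O2, 20% O2, HepG2. Against 20% O2, 7 glycogen genes were higher and 1 lower, beside 8.99% and 6.17% of all genes.

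Collagen hydroxylases and cross-linking enzymes rose in 8 of 14 and fell in 3, where 30.6% of all genes were called each way. Against 20% O2 8 were higher and 1 lower, beside 8.99% and 6.17% of all genes. LOX had 11.79, 11.73, 11.79 and 11.76 in HepG2S1 at 20% O2, all below its arrays at 2% O2 and above those of HepG2 given earlier. LOXL2, a related oxidase, had 11.75, 11.84 and 11.73 in HepG2S1 at 2% O2, 10.13, 10.29, 10.13 and 10.11 in HepG2S1 at 20% O2 and 8.35, 7.89 and 7.83 in HepG2 (3.75 ± 0.10 against HepG2; 1.61 ± 0.10 against 20% O2). In LOX and LOXL2 2% minus 20% O2 was 1.46 and 1.61, beside 4.12 and 2.14 for 20% O2 minus HepG2. LOXL4, another of the family, fell by 3.45 against HepG2. JmjC demethylases and TET enzymes, which also need oxygen, rose in 6 of 17 and fell in 8. TET1, which oxidises 5-methylcytosine, had 4.59, 4.81 and 4.80 in HepG2S1 at 2% O2 and 8.22, 7.67 and 8.04 in HepG2 (-3.25 ± 0.12), and against 20% O2 7 of the 17 were higher and none lower.

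Cell cycle genes were higher almost throughout, and few differed between oxygen levels. Of 24 genes of DNA replication and G1/S 23 rose and 1 fell, with a median of 1.11, and of 24 mitosis genes 23 rose and 1 was not called, with a median of 1.52. RRM1, the large subunit of ribonucleotide reductase, had 13.12, 13.11 and 13.12 in HepG2S1 at 2% O2 and 9.27, 9.16 and 9.30 in HepG2 (3.87 ± 0.06; limma, adjusted p = 2.58e-17). CCNE2, cyclin E2, changed by 3.36 ± 0.11 and CDC45, of the replicative helicase, by 2.22 ± 0.06. ASPM, of spindle poles, had 10.76, 10.87 and 10.59 in HepG2S1 at 2% O2 and 8.05, 7.51 and 7.28 in HepG2 (3.12 ± 0.15), CENPF, of kinetochores, changed by 2.62 ± 0.16, and MKI67, the proliferation antigen, by 1.81 ± 0.06. CCNE1, cyclin E1, was the 1 that fell (-0.62 ± 0.07) and PLK1, a mitotic kinase, the 1 not called (0.04 ± 0.06), both named after their values were seen. Between 2% and 20% O2 3 of the 48 were higher and 1 lower, beside 8.99% and 6.17% of all genes.

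Cyclin D, CDK and inhibitor genes rose in 6 of 13 and fell in 3, beside 30.6% of all genes called each way. The D cyclins, partners of CDK4 and CDK6, went different ways. CCND1 had 10.06, 9.96 and 10.19 in HepG2S1 at 2% O2 and 11.70, 11.61 and 11.61 in HepG2 (-1.56 ± 0.07), CCND2 fell by 2.52 and CCND3 rose by 2.31 ± 0.07. CDK2, the partner of cyclin E, changed by 2.52 ± 0.09, and CDKN1A, the inhibitor p21, was not called, with 10.11, 10.12 and 10.12 in HepG2S1 at 2% O2 and 10.07, 9.99 and 10.12 in HepG2 (0.05 ± 0.05; adjusted p = 0.363).

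Receptor kinases and kinases bound by sorafenib fell in 12 of 20 and rose in 4, where 30.6% of all genes were called each way. Both KIT and KDR, receptors that sorafenib is known to block, were low in both groups: KIT had 4.64, 4.53 and 4.71 in HepG2S1 at 2% O2 and 4.85, 4.98 and 4.72 in HepG2, under the low line throughout, and KDR, the main VEGF receptor, had 5.59, 5.70 and 5.65 in HepG2S1 at 2% O2 and 5.78, 5.95 and 5.92 in HepG2. Their differences were small (KIT -0.22 ± 0.08, adjusted p = 0.021; KDR -0.24 ± 0.07, adjusted p = 0.0107) and lost their call under repeated quantile normalization (adjusted p = 0.0965 for KIT and 0.0777 for KDR), and the call of KIT was also lost without replicate 2 of HepG2 (-0.16; adjusted p = 0.107) and without replicate 2 of HepG2S1 at 2% O2 (-0.18). DDR2, a collagen receptor that sorafenib also binds, had 9.14, 8.94 and 9.34 in HepG2S1 at 2% O2 and 6.38, 6.41 and 6.43 in HepG2 (2.73 ± 0.10). EGFR, the receptor of epidermal growth factor, had 11.78, 11.74 and 11.69 in HepG2S1 at 2% O2, 11.09, 11.02, 10.99 and 10.97 in HepG2S1 at 20% O2 and 8.67, 8.59 and 8.50 in HepG2 (3.15 ± 0.06 against HepG2; 0.72 ± 0.05 against 20% O2). FGFR3, a fibroblast growth factor receptor, fell by 3.91 and ERBB3, a partner of EGFR, by 3.35, while AXL, a receptor of GAS6, rose by 2.39 ± 0.06.

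Growth factors and IGF-binding proteins rose in 8 of 26 (30.8%) and fell in 10 (38.5%), near the 30.6% of all genes called in each direction. BMP2, a bone morphogenetic protein, had 11.55, 11.52 and 11.74 in HepG2S1 at 2% O2 and 6.97, 7.01 and 7.54 in HepG2 (4.43 ± 0.12), and FGF2, basic fibroblast growth factor, changed by 3.47 ± 0.14. IGFBP1, a liver-made binding protein, had 8.91, 8.86 and 8.96 in HepG2S1 at 2% O2, 8.18, 8.34, 7.97 and 8.36 in HepG2S1 at 20% O2 and 12.73, 12.68 and 12.83 in HepG2 (-3.84 ± 0.09 against HepG2; 0.70 ± 0.08 against 20% O2). Its relative IGFBP3 thus ended above HepG2 and IGFBP1 below it, while both were higher at 2% than at 20% O2. Output genes of ERK signalling fell in 11 of 20 and rose in 5. Against 20% O2 5 of the 20 were higher and 8 lower, beside 8.99% and 6.17% of all genes. EGR1, an immediate early factor, had 8.25, 8.49 and 8.29 in HepG2S1 at 2% O2 and 12.09, 11.95 and 12.18 in HepG2 (-3.73 ± 0.08), SPRY4, a feedback inhibitor, changed by -3.30 ± 0.08, and KLF5 rose by 2.53 ± 0.05.

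Angiogenic factors rose in 10 of 17 and fell in 7, with a median of 1.22, and each of them was called. With genes of low level left out 4 fell. SEMA3C, a secreted guidance protein, had 9.53, 9.51 and 9.42 in HepG2S1 at 2% O2 and 5.68, 5.91 and 5.81 in HepG2 (3.69 ± 0.07). Of the VEGF genes, VEGFB (1.22) and VEGFC (1.07) rose along with VEGFA, while PGF (-0.84) fell. VEGFB, VEGFC and PGF were named after their values were seen. Against 20% O2 4 of the 17 were higher and 1 lower, beside 8.99% and 6.17% of all genes.

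Stress programmes were divided, beside 30.6% of all genes called in each direction. ATF4 targets rose in 8 of 24 and fell in 13, and 5 rose with 75th percentile scaling. DDIT3, the stress factor CHOP, had 10.96, 10.80 and 10.77 in HepG2S1 at 2% O2 and 8.49, 8.62 and 8.61 in HepG2 (2.27 ± 0.07), and DDIT4, an inhibitor of mTORC1, changed by 2.19 ± 0.06. CHAC1, which degrades glutathione, rose by 1.69 ± 0.12, while SLC7A11, the cystine importer named after its value was seen, fell by 1.47. Genes of ER chaperones and the unfolded protein response rose in 9 of 19 and fell in 4, with XBP1, a factor of that response, at -0.94 ± 0.06, EIF2AK3, its kinase PERK, at 0.80 ± 0.07 and SDF2L1, a chaperone partner, at 0.66 ± 0.05. NRF2 targets fell in 13 of 20 and rose in 4. Between 2% and 20% O2, 9 ATF4 targets were higher and 3 lower. Of the ER chaperone and unfolded protein response genes 10 were higher and 1 lower, and of the NRF2 targets 2 higher and 6 lower. These stood beside 8.99% of all genes higher and 6.17% lower. AKR1C2, a steroid reductase, had 6.89, 6.94 and 6.64 in HepG2S1 at 2% O2 and 10.69, 10.93 and 10.96 in HepG2 (-4.03 ± 0.13), and ME1, malic enzyme, went the other way, with 10.41, 10.43 and 10.32 in HepG2S1 at 2% O2 and 5.17, 4.92 and 5.20 in HepG2 (5.29 ± 0.07).

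Drug efflux transporters fell in 7 of 12 and rose in 2, with a median of -1.31, where 30.6% of all genes were called each way. ABCB1, the multidrug pump P-glycoprotein, had 5.37, 5.48 and 5.67 in HepG2S1 at 2% O2 and 10.04, 9.99 and 9.87 in HepG2 (-4.46 ± 0.07; limma, adjusted p = 1.46e-16). ABCG2, the breast cancer resistance protein, had 8.82, 8.82 and 8.80 in HepG2S1 at 2% O2 and 6.76, 6.60 and 6.96 in HepG2 (2.04 ± 0.08). ABCC2, which exports conjugates into bile, changed by -3.43 ± 0.09 and ABCA1, the cholesterol exporter, by -4.66 ± 0.09. With genes of low level left out, 2 transporters fell. Glutathione transferases and conjugation genes fell in 11 of 16 (5 with such genes left out) and rose in 5. GSTP1, the pi-class transferase, had 12.30, 12.33 and 12.33 in HepG2S1 at 2% O2 and 7.59, 7.63 and 7.75 in HepG2 (4.67 ± 0.06), while the glucuronosyltransferases UGT2B10 and UGT2B4, of close sequence, fell by 6.65 and 4.80 to levels under the low line.

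Apoptosis regulators fell in 9 of 18 and rose in 5, beside 30.6% of all genes called each way. PMAIP1, the killer protein NOXA, had 10.66, 10.40 and 10.66 in HepG2S1 at 2% O2 and 8.37, 8.47 and 8.23 in HepG2 (2.22 ± 0.08), BCL2L1, the survival protein BCL-XL, changed by -1.21 ± 0.06, BMF, a BH3-only protein, by -1.51 ± 0.07 and MCL1 by -0.22 ± 0.05. Targets of p53 fell in 11 of 17 and rose in 3, beside the same share of all genes. TP53INP1, a stress-induced p53 partner, had 7.57, 7.61 and 7.66 in HepG2S1 at 2% O2 and 10.92, 10.91 and 11.01 in HepG2 (-3.33 ± 0.09), and TNFRSF10B, a death receptor, changed by -1.24 ± 0.06.

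Interferon-stimulated genes rose in 9 of 20 and fell in 9 (5 with genes of low level left out), beside 30.6% of all genes called each way. IFI44L had 8.88, 9.06 and 8.65 in HepG2S1 at 2% O2 and 5.79, 5.42 and 5.40 in HepG2 (3.32 ± 0.12), HERC5, the ligase of ISG15, changed by 2.93 ± 0.17, and MX2, an antiviral GTPase, fell by 4.10 on the log2 scale. Cytokines, chemokines and prostaglandin genes rose in 7 of 23 and fell in 8. IL1A, interleukin 1 alpha, had 10.21, 10.38 and 9.93 in HepG2S1 at 2% O2, 9.36, 9.07, 9.35 and 9.12 in HepG2S1 at 20% O2 and 5.83, 5.82 and 5.86 in HepG2 (4.34 ± 0.10 against HepG2; 0.95 ± 0.10 against 20% O2). PTGS2, the inducible cyclooxygenase, had 8.93, 8.80 and 8.54 in HepG2S1 at 2% O2, 7.64, 7.46, 7.44 and 7.32 in HepG2S1 at 20% O2 and 5.55, 5.48 and 5.92 in HepG2 (3.11 ± 0.13 against HepG2; 1.29 ± 0.12 against 20% O2). Both were highest at 2% O2 and had no overlap between these 3 groups, while withdrawn HepG2S1 had 8.89, 8.66 and 8.56 for PTGS2, within the range at 2% O2. For IL1A withdrawn HepG2S1 had 9.84, 9.93 and 9.83, and its highest array reached the lowest array at 2% O2. PTGES, the next enzyme towards prostaglandin E2, rose by 4.43 ± 0.05, and CCL20, a chemokine for lymphocytes and dendritic cells, fell by 5.59.

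Genes of lipid synthesis were mostly lower. Sterol synthesis fell in 12 of 16 and rose in 4, with a median of -0.46, and fatty acid synthesis fell in 10 of 15 and rose in 3 (1 with 75th percentile scaling or at an adjusted p of 0.01), with a median of -0.56. MSMO1, a sterol demethylase, had 10.25, 10.16 and 9.93 in HepG2S1 at 2% O2 and 12.10, 12.05 and 11.97 in HepG2 (-1.93 ± 0.09), SQLE, squalene epoxidase, changed by -1.63 ± 0.07, and MLXIPL, the carbohydrate-sensing factor ChREBP, by -3.46 ± 0.09. INSIG1, which holds back sterol synthesis, had 10.36, 10.38 and 10.05 in HepG2S1 at 2% O2 and 6.49, 6.39 and 6.80 in HepG2 (3.70 ± 0.11). Fatty acid oxidation and lipid droplet genes fell in 14 of 22 and rose in 6. PLIN2, the coat of lipid droplets, had 5.81, 5.72 and 5.79 in HepG2S1 at 2% O2 and 12.41, 12.48 and 12.56 in HepG2 (-6.71 ± 0.05), with no change by oxygen passing the test (0.01 ± 0.05; adjusted p = 0.856). FABP3, a fatty acid carrier of muscle, rose by 4.62 ± 0.11.

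WNT targets fell in 12 of 16 and rose in 3, with a median of -2.16. Against 20% O2 none of the 16 was higher and 5 were lower, beside 8.99% and 6.17% of all genes. NOTUM, which switches WNT proteins off, had 7.22, 7.41 and 7.67 in HepG2S1 at 2% O2 and 12.11, 12.07 and 12.19 in HepG2 (-4.69 ± 0.10), and NKD1, another feedback inhibitor, changed by -4.40 ± 0.06. In the NOTCH pathway 5 of 14 rose and 4 fell (7 with 75th percentile scaling), near the 30.6% of all genes called each way. HEY1, a NOTCH target, had 10.17, 10.16 and 9.93 in HepG2S1 at 2% O2, 8.56, 8.38, 8.50 and 8.42 in HepG2S1 at 20% O2 and 7.96, 7.98 and 8.15 in HepG2, with 2.06 ± 0.09 against HepG2 and 1.63 ± 0.08 against 20% O2, and JAG1, a ligand, changed by -2.15 ± 0.06. TGF-beta, BMP and YAP targets rose in 7 of 21 and fell in 8. CCN2, connective tissue growth factor, had 7.83, 7.76 and 8.30 in HepG2S1 at 2% O2 and 12.18, 11.94 and 12.07 in HepG2 (-4.10 ± 0.11), and ID2, an inhibitor of differentiation factors, was lower than HepG2 (-1.95 ± 0.13) and higher than at 20% O2 (1.02 ± 0.12).

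Iron handling genes fell in 10 of 17 and rose in 5, where 30.6% of all genes were called each way. STEAP4, a metalloreductase, had 11.08, 11.06 and 11.003 in HepG2S1 at 2% O2, 11.68, 11.59, 11.76 and 11.64 in HepG2S1 at 20% O2 and 4.39, 4.97 and 5.04 in HepG2 (6.25 ± 0.12 against HepG2; -0.62 ± 0.11 against 20% O2), and SLC40A1, the iron exporter ferroportin, changed by -5.14 ± 0.09. Metallothioneins, small metal-binding proteins, rose in 5 of 9 and fell in 2, but 1 fell without replicate 1 or replicate 2 of HepG2S1 at 2% O2, without replicate 2 of HepG2, or at an adjusted p of 0.01. MT1X had 12.90, 13.01 and 12.92 in HepG2S1 at 2% O2 and 11.47, 11.31 and 11.57 in HepG2 (1.49 ± 0.06), and MT1E fell by 1.08. Metallothionein genes are close in sequence, so that probes may share signal among them. Circadian clock genes rose in 6 of 18 (33.3%) and fell in 7 (38.9%), near the share of all genes. HLF, a clock-driven liver factor, had 5.97, 6.00 and 6.29 in HepG2S1 at 2% O2 and 11.97, 12.02 and 11.96 in HepG2 (-5.90 ± 0.09), PER1 rose by 2.12 ± 0.09 and BMAL1 by 1.57 ± 0.07.

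Autophagy and mitophagy genes rose in 9 of 17 and fell in 6, led by BNIP3L, a mitophagy receptor (1.31 ± 0.06), BNIP3 and ULK1, the starting kinase (0.73 ± 0.06). HOX genes, which record position along the body axis, rose in 14 of 23 and fell in 3 (1 with genes of low level left out). HOXC10 had 9.49, 9.38 and 9.49 in HepG2S1 at 2% O2 and 6.01, 5.75 and 5.89 in HepG2 (3.57 ± 0.07), HOXC13 changed by 1.72 ± 0.07, and HOXD10 had 8.59, 9.04 and 8.28 in HepG2S1 at 2% O2, 7.23, 7.10, 7.12 and 7.21 in HepG2S1 at 20% O2 and 6.57, 6.88 and 6.55 in HepG2 (1.97 ± 0.14 against HepG2; 1.47 ± 0.13 against 20% O2). Common internal control genes were not level: 9 of 12 rose and 2 fell, with a median of 0.29. HPRT1 rose by 1.43 ± 0.06, GUSB by 1.40 ± 0.06 and PGK1, a glycolytic enzyme and HIF target, by 1.06 ± 0.05, while GAPDH was at 0.28 ± 0.05 and POLR2A, chosen with GAPDH after values were seen, was not called (-0.14 ± 0.07).

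**Figure D5:**
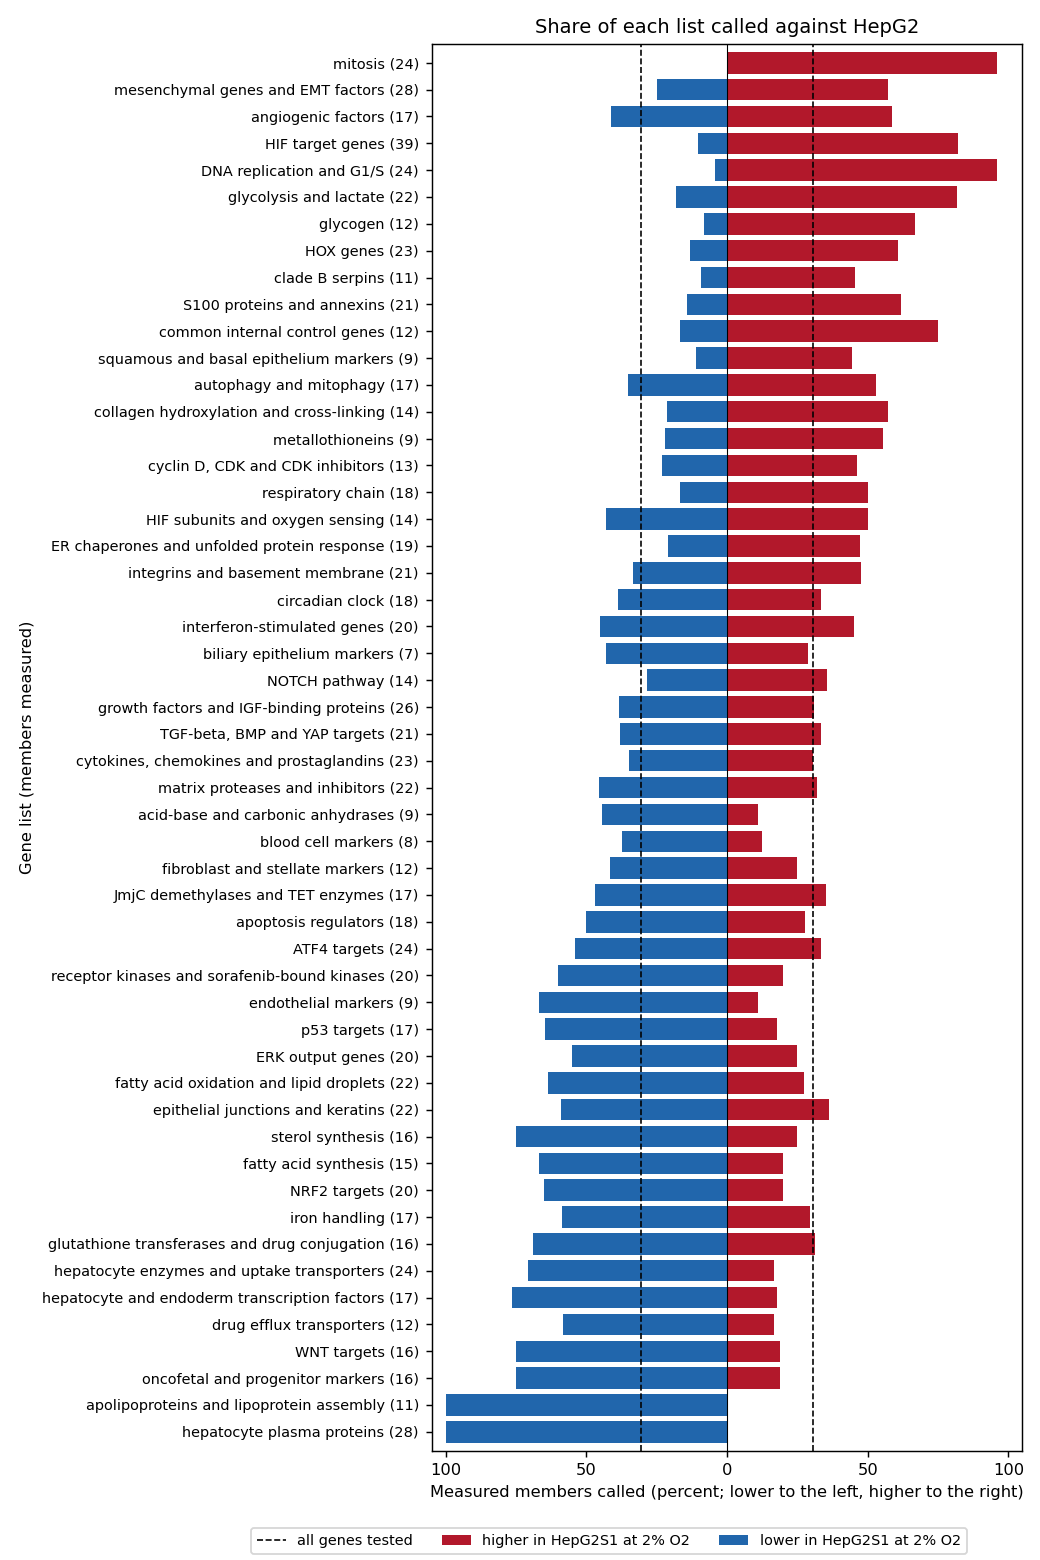
Percent of measured members called higher (to the right) and lower (to the left) in HepG2S1 under sorafenib at 2% O2 against HepG2, for 52 gene lists sorted by median log2 fold change. Dashed lines mark the 30.6% of all genes called in each direction, and the lists furthest from them are the plasma proteins (28 of 28 lower), the apolipoproteins (11 of 11 lower) and the cell cycle lists (23 of 24 higher each).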

How the data were processed

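RNA of 13 flasks was measured on Affymetrix whole-transcript arrays. The authors deposited log2 values, summarised by RMA per the submitters' processing notes, for 28926 array rows. RMA includes a background correction and quantile normalization, which make the arrays equal in distribution and can hide a shift of all genes. The version is not given in the sources used here. Rows were named from the platform annotation (19310 with 1 symbol, 1752 with several, 7864 with none), and 19279 symbols were updated through RefSeq GRCh38.p14. For 685 genes with several rows the row with the highest mean level was kept. limma 3.58.1 in R 4.3.3 fitted 4 groups in 1 model (lmFit, eBayes), with Benjamini-Hochberg adjustment over 18377 genes. Errors are the SE of that fit. Arrays give no read depth, and their number limits the precision.

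The script was tested on simulated data of 18377 genes for the comparison of HepG2S1 at 2% O2 with HepG2. It recovered 32% of 50 genes changed by 0.3 on the log2 scale, 78% at 0.5 and 100% at 1 and at 2, with 7 false calls of 162. Far fewer genes changed in the simulation than the 61.2% called in the data, so these rates need not hold there. The members and gene lists were chosen with earlier results of these data known. The text names the 8 largest rises and falls among called genes whose arrays do not overlap, the members of each list that changed most, at most 3 called ones, 41 fixed genes (1 not analysed here), and the genes with the largest difference between 2% and 20% O2: 10 called in both tests, 6 whose 2% minus 20% O2 and 20% O2 minus HepG2 differences were both called with opposite signs, and 6 called between oxygen levels but not against HepG2. Other list members were chosen after their values were seen, or define a cell type. Of 945 listed genes 854 were measured. Alternatives covered the moderation, the samples in the fit, a filter at the 33rd percentile of level, scaling, repeated normalization, array weights, rows per gene, the threshold and leaving out each array.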

Additional observations from a re-analysis of the deposited data

Results flagged for a closer look

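Of the 196 genes taken by the naming rule, 7 differed from HepG2 in opposite directions at 2% O2 and at 20% O2 under sorafenib. The difference itself was tested as 2% minus 20% O2 in the limma fit. Genes outside the rule also took opposite directions, among them CD22 (-0.38 at 2% O2 and 0.79 at 20% O2, each against HepG2). Of the 7, all but EPAS1 were above HepG2 at 2% O2 and below it at 20% O2. PFKFB4 differed between oxygen levels by 2.06 and ENO2 by 2.05 on the log2 scale. EGLN3 differed by 1.90, PPP1R3C by 1.76, HK2 by 1.19 and KDM3A by 0.74. EPAS1 ran the other way, at -0.36. In each of the 7 every array at 2% O2 lay on 1 side of every HepG2 array. The same held in 10713 of the 11254 genes called against HepG2, and the 7 were picked for being called there. In all, 80 of the 196 genes taken by the naming rule were called between 2% and 20% O2, where 15.2% of all genes were. Because the rule takes some genes for passing this same test, the count is not a result about the named genes.

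In 12 of the 196 genes 1 of the 4 arrays of HepG2S1 at 20% O2 lay apart from the other 3, and chance gives about 1 in 20. The gap to the nearest array as a share of the whole range of the 4 arrays was 0.992 in VEGFA, 0.967 in SERPINF1, 0.961 in CCN2 and 0.931 in BMF. It was 0.882 in EDIL3, 0.87 in LOXL2, 0.869 in HPRT1, 0.864 in PLIN2, 0.855 in SULT2A1, 0.854 in SRI, 0.834 in KDR and 0.831 in HIF1A. These arrays are not part of the comparison of HepG2S1 at 2% O2 with HepG2, beyond the shared estimate of the spread.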

How the results depend on the processing

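No paired analysis was possible because the labels give the groups no shared replicate numbers. Over 15 alternative settings none of the 196 named genes changed direction against HepG2 while called in the main or the alternative setting. Changes of direction in genes uncalled in both were not followed. Of the named genes 9 changed their call in at least 1 setting, and the cause was not tested. The counts over all genes against HepG2 kept within 1.5 times, with 10399 to 11218 calls when 1 array was left out. Between 2% and 20% O2 the counts moved more. With 75th percentile scaling 2475 genes were lower, 2 of them by 2-fold. Array weights gave 4568 calls, 2227 lower. An adjusted p of 0.01 left 1298, 926 higher and 372 lower. Leaving out 1 array gave 1598 to 2963 calls, 1077 to 1763 higher and 521 to 1378 lower, with 69 to 91 higher and 1 to 2 lower by 2-fold. Of 104 list counts 21 moved by over 1.5 times in at least 1 setting, and the moved counts stand beside each list. They came with genes of low level left out, with 75th percentile scaling, under repeated quantile normalization, at an adjusted p of 0.01 or without 1 array. Where genes of low level were left out, members could leave the list itself, so those counts have a different base. SLC10A5 passed against HepG2 with both groups alone (-0.25) and with 75th percentile scaling (-0.35), and KIT and KDR did not pass an adjusted p of 0.01. Folds may be compressed near the floor, which was not examined.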

Other observations

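Median log2 fold changes of HepG2S1 at 2% O2 minus HepG2 differed by chromosome among 8908 autosomal genes above the median level, where the median of all was 0.06. Chromosome 18 had the highest median at 0.52 (136 genes), and chromosomes 21 and 12 had 0.40 and 0.39. Chromosome 2 had the lowest at -0.31 (605 genes), followed by chromosome 14 at -0.26 and chromosome 20 at -0.22. On chromosome 2, 23.0% of these genes were called higher and 59.7% lower.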
